A study of Homo sapiens with 6 samples.

Results

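The enzymes that hydroxylate collagen prolines and lysines are encoded by the 7 genes described here: P4HA1, P4HA2, P4HA3, P4HB, PLOD1, PLOD2 and PLOD3. They were taken by gene symbol from the 60675 gene entries of the deposited table, and all 7 were found, with 1 entry each. The study compared cells of HCT116, a long-established line from a human colon cancer, in which either wild-type PHF5A (WT) or PHF5A with glutamine in place of the lysine at residue 29 (K29Q) was stably expressed. PHF5A is a subunit of the SF3B complex, which recognises the intron branch site during splicing, and glutamine is commonly used to mimic an acetylated lysine. Both groups carried an introduced PHF5A, both were grown in the same medium with no other treatment named in the labels, and each had 3 libraries. The labels do not say if the replicate libraries stem from different cultures or from 1 stable line, so each p-value reflects library-to-library spread, part of which may be technical. In bulk RNA, fewer cells expressing a gene and less of its RNA per cell cannot be told apart.

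Collagen chains are hydroxylated in the endoplasmic reticulum before they fold. Collagen prolyl 4-hydroxylase is a tetramer of catalytic alpha subunits (P4HA1, P4HA2 or P4HA3) and beta subunits (P4HB, which is also protein disulfide isomerase), and hydroxyproline stabilises the collagen triple helix. The PLOD genes encode lysyl hydroxylases, whose product anchors sugars and cross-links. PLOD2 is the form that acts on the short ends of the chains (telopeptides). The P4HA and PLOD enzymes need iron, 2-oxoglutarate, oxygen and ascorbate, and P4HA1, P4HA2, PLOD1 and PLOD2 are known to be induced by HIF1 in hypoxic cells.

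HIF1 binds a short element whose core reads ACGTG or GCGTG. The 250 bases upstream of the RefSeq start (GRCh38.p14) of P4HA1 and PLOD2, the members whose levels were set apart between the groups, are printed here with those of P4HA2 and PLOD1, their closest relatives with overlapping levels. Each runs 5′ to 3′ on the gene's own strand, and capitals mark every match to ACGTG or GCGTG on either strand (CACGT and CACGC are the same cores read on the other strand).
P4HA1, chr10:73096867-73097116, minus strand: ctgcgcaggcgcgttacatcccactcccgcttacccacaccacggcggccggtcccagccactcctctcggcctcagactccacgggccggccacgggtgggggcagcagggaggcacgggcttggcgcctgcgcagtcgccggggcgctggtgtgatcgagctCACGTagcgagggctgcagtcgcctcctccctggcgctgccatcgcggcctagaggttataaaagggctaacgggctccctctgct
PLOD2, chr3:146161185-146161434, minus strand: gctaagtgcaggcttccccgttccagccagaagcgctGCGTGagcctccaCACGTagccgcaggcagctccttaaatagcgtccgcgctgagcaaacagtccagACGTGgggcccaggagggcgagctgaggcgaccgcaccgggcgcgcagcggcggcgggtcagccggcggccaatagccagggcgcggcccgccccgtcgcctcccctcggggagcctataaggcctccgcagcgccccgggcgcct
P4HA2, chr5:132227092-132227341, minus strand: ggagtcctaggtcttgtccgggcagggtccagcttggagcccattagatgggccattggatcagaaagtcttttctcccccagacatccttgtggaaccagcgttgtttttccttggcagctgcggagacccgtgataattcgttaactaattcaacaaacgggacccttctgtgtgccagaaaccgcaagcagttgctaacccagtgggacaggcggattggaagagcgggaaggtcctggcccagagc
PLOD1, chr1:11934467-11934716, plus strand: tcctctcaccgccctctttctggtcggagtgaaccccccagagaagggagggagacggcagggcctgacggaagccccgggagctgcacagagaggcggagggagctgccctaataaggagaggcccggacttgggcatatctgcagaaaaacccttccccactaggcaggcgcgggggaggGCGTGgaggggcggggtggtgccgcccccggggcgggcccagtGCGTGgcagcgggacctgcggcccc
The P4HA1 window held 1 ACGTG core, 86 bases before the start. The PLOD2 window held 3 cores, at 213, 200 and 146 bases before the start, of which 2 were ACGTG and 1 was GCGTG. PLOD1 held 2 GCGTG cores, P4HB held 1 GCGTG core, and the P4HA2 and PLOD3 windows held 0 of either core. Such letters are common: 43.2% of 35116 RefSeq windows of this length held at least 1 of these cores, 18.5% held ACGTG, and 7.76% held 3 or more cores. A match describes the letters of the window and is not evidence of binding. The GENCODE models of all 6 genes reach farther upstream than the RefSeq start used, farthest for P4HA2, so other annotated starts were not searched.

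Levels are given as FPKM, fragments scaled to transcript length and to the mapped fragments of the library, so that levels of different genes can be set side by side. PHF5A had 32.4, 34.4 and 32.7 FPKM in WT 1 to 3 and 41.4, 45.9 and 45.0 in K29Q 1 to 3. Gene totals do not tell the introduced from the endogenous copy or the mutant from the wild type. Estimated depth lay between 33600000 and 40000000 fragments per library. Run names in the column headers put K29Q 1, K29Q 2 and WT 2 on one flow cell (A), with K29Q 3, WT 1 and WT 3 on the other (B), although no label states this. Of 7 epithelial markers 6 were tested, with summed levels of 1247 to 1400 FPKM over the list in WT and 1146 to 1200 in K29Q. For 4 of the 6 (KRT8, KRT18, KRT19 and CDH1) K29Q lay wholly below WT, against 9% of all tested genes. Their part in the results was not tested. The intestinal factor CDX2 lay between 2.92 and 3.54 FPKM, while VIL1, the marker not tested, lay between 0.0358 and 0.181 FPKM. Of 10 fibroblast markers 8 stayed under 0.1 FPKM in every library, and DCN, LUM and POSTN were listed at 0 throughout. The summed fibroblast level was 4.54 to 5.48 FPKM in WT and 4.70 to 6.12 in K29Q, most of it COL1A1. Of 6 endothelial markers, 4 stayed under 0.1 FPKM throughout, and of 5 leukocyte markers, 2 did.

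P4HA1, the main catalytic subunit of prolyl 4-hydroxylase in most cells, was the most abundant of the alpha subunits. Its level was 21.7, 19.7 and 17.6 FPKM in WT 1 to 3 and 27.4, 30.4 and 30.3 FPKM in K29Q 1 to 3. Every K29Q library lay above every WT library, and the lowest K29Q value was 1.26 times the highest WT value. The means were 19.7 ± 2.09 and 29.4 ± 1.73 FPKM (SD, n = 3 each), a ratio of 1.49. On the log2(FPKM + 1) scale the difference was 0.56 (SE 0.090, 95% confidence interval 0.35 to 0.77). It missed the threshold of 0.05 over the 13261 genes tested (limma, Benjamini-Hochberg adjusted p = 0.11). P4HA1 (ENSG00000122884) lies at chr10:73007217-73096974 on the minus strand of GRCh38. The difference ranked 96th of all tested genes from the top, and its p ranked 49th.

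PLOD2, the telopeptide lysyl hydroxylase, was a low-abundance member and had the widest difference of the 6 tested. It had 6.05, 4.97 and 4.28 FPKM in WT 1 to 3 and 8.43, 8.34 and 10.2 FPKM in K29Q 1 to 3. The groups did not overlap, and the lowest K29Q value was 1.38 times the highest WT value. The means were 5.10 ± 0.891 and 8.99 ± 1.04 FPKM (SD, n = 3 each), a ratio of 1.76. The log2 difference was 0.72 (SE 0.124, 95% confidence interval 0.42 to 1.01), and PLOD2 also missed the threshold (limma, adjusted p = 0.137). It ranked 42nd of all tested genes by difference and 65th by p. PLOD2 (ENSG00000152952) lies at chr3:146069440-146163653 on the minus strand.

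Of the 7 members, 6 passed the filter of at least 1 FPKM in at least 3 libraries, and 0 of these 6 passed the threshold, against 7 of 13261 genes overall (0.0528%, with 0.0302% higher and 0.0226% lower). At an unadjusted p under 0.05 there were 2 members, P4HA1 and PLOD2, both higher in K29Q, against 12.5% of all genes at that limit (7.65% higher and 4.89% lower). The same 2 had groups that did not overlap, with K29Q above WT. Of all genes 17.8% had groups that did not overlap, 8.8% higher and 9% lower, and 0 members were wholly lower. In WT both genes had their highest value in WT 1 and their lowest in WT 3. Exact two-sided permutation tests of the 3 against 3 values gave p = 0.1 for each, the smallest p that this design allows. The plot of FPKM by library shows both genes beside the other 5.

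**Figure D1:**
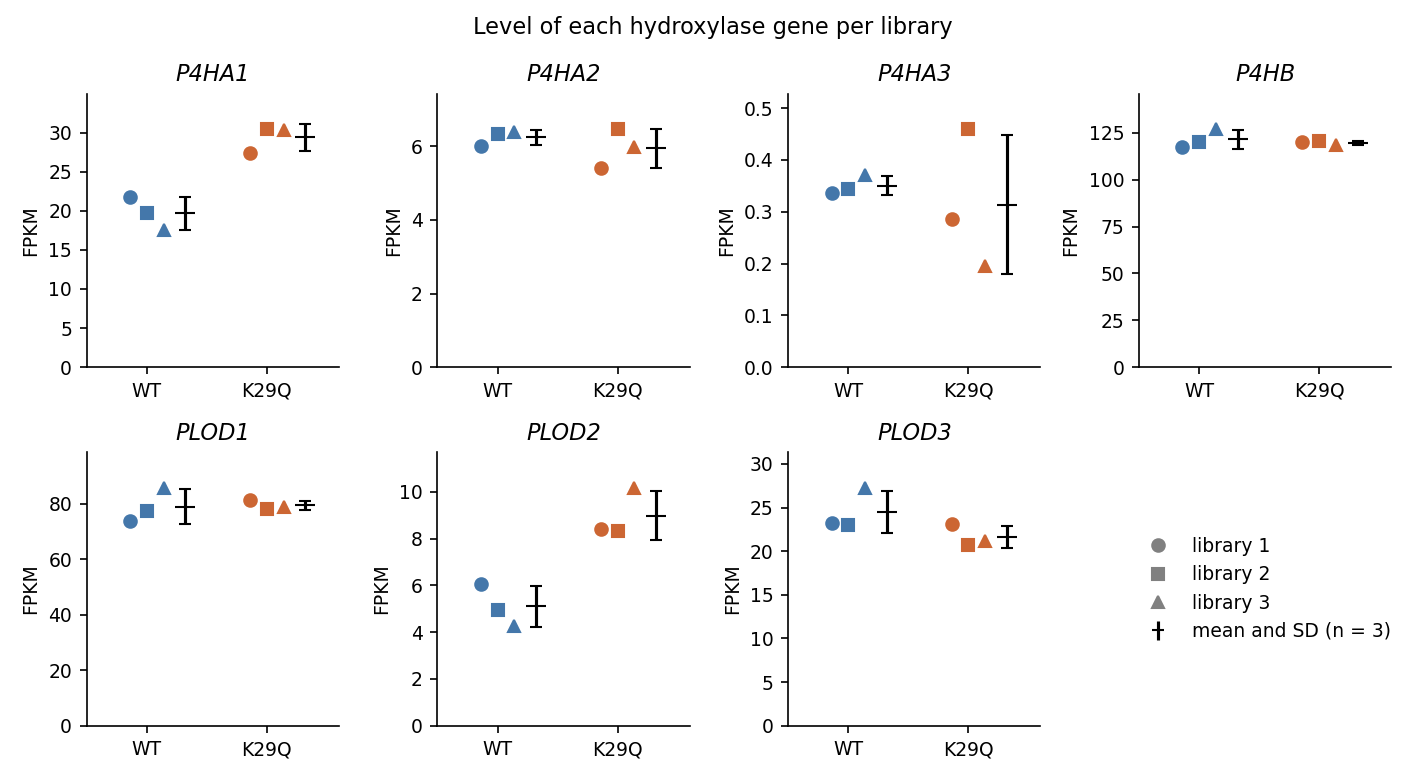
FPKM (y axis, from 0, a separate scale per gene) of the 7 hydroxylase genes in 3 WT and 3 K29Q libraries, with one symbol per library and the mean with SD beside each group. P4HA1 and PLOD2 have all K29Q libraries above all WT libraries, and the groups of the other 5 genes overlap.

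The other catalytic alpha subunits showed no such separation. P4HA2, the second widely expressed form, had 6.00, 6.33 and 6.39 FPKM in WT 1 to 3 and 5.41, 6.46 and 5.97 FPKM in K29Q 1 to 3. K29Q 1 was the lowest and K29Q 2 the highest of all 6 libraries. The log2 difference was −0.06 (SE 0.075, 95% confidence interval −0.24 to 0.12, limma adjusted p = 0.743), an interval that lies wholly below that of P4HA1. P4HA2 (ENSG00000072682) lies at chr5:132191838-132295315 on the minus strand. P4HA3, the rarest form, stayed below 1 FPKM in every library and was not in the main test. It had 0.336, 0.344 and 0.371 FPKM in WT and 0.286, 0.459 and 0.196 FPKM in K29Q, so the K29Q values bracketed the WT values. With no filter on low values its log2 difference was −0.04 (limma adjusted p = 0.892). P4HA3 (ENSG00000149380, chr11:74235801-74311657) overlaps PPME1 on the opposite strand, which had 10.5 to 12.8 FPKM in WT and 9.97 to 12.2 in K29Q. The strand setting of the counting is not given in the sources used here, so reads from the shared stretch cannot be told apart.

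P4HB, the beta subunit and disulfide isomerase, was the most abundant member. It had 117, 120 and 127 FPKM in WT 1 to 3 and 120, 121 and 119 FPKM in K29Q 1 to 3. All K29Q libraries lay within the range of the WT libraries. The log2 difference was −0.02 (95% confidence interval −0.15 to 0.11, limma adjusted p = 0.897), and its sign changed with quantile normalization (0.01) and with correction for GC content and length (0.02). P4HB (ENSG00000185624) lies at chr17:81843159-81860694 on the minus strand. An antisense gene model at its end, RP11-498C9.2 (ENSG00000262831, chr17:81843165-81843958), had 0.754, 0.411 and 0.392 FPKM in WT and 0.954, 6.78 and 4.56 FPKM in K29Q. This model was chosen after its values were seen, was not in the main test, and cannot be told apart from P4HB without strand.

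The remaining lysyl hydroxylases had overlapping groups, with like means for PLOD1 and a lower K29Q mean for PLOD3. PLOD1, which hydroxylates lysines within the triple helix, had 73.6, 77.5 and 85.7 FPKM in WT and 81.2, 78.2 and 78.7 FPKM in K29Q. The K29Q values lay inside the WT range, and the log2 difference was 0.01 (95% confidence interval −0.16 to 0.18, limma adjusted p = 0.962). That sign turned when WT 1, WT 2 or K29Q 1 was left out (−0.04, −0.0011 and −0.01). PLOD3, which also transfers sugars to hydroxylysine, had 23.2, 23.0 and 27.3 FPKM in WT and 23.1, 20.7 and 21.1 FPKM in K29Q. K29Q 2 and K29Q 3 lay below every WT library and K29Q 1 within their range. The means were 24.5 ± 2.43 and 21.7 ± 1.28 FPKM (SD, 3 libraries each), and the log2 difference was −0.17 (95% confidence interval −0.37 to 0.04, limma adjusted p = 0.457). PLOD1 (ENSG00000083444) lies at chr1:11934205-11975538 on the plus strand. PLOD3 (ENSG00000106397, chr7:101205977-101218420, minus strand) overlaps the opposite-strand gene ZNHIT1 at its 5′ end, which lay between 10.2 and 10.7 FPKM in all libraries.

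**Figure D2:**
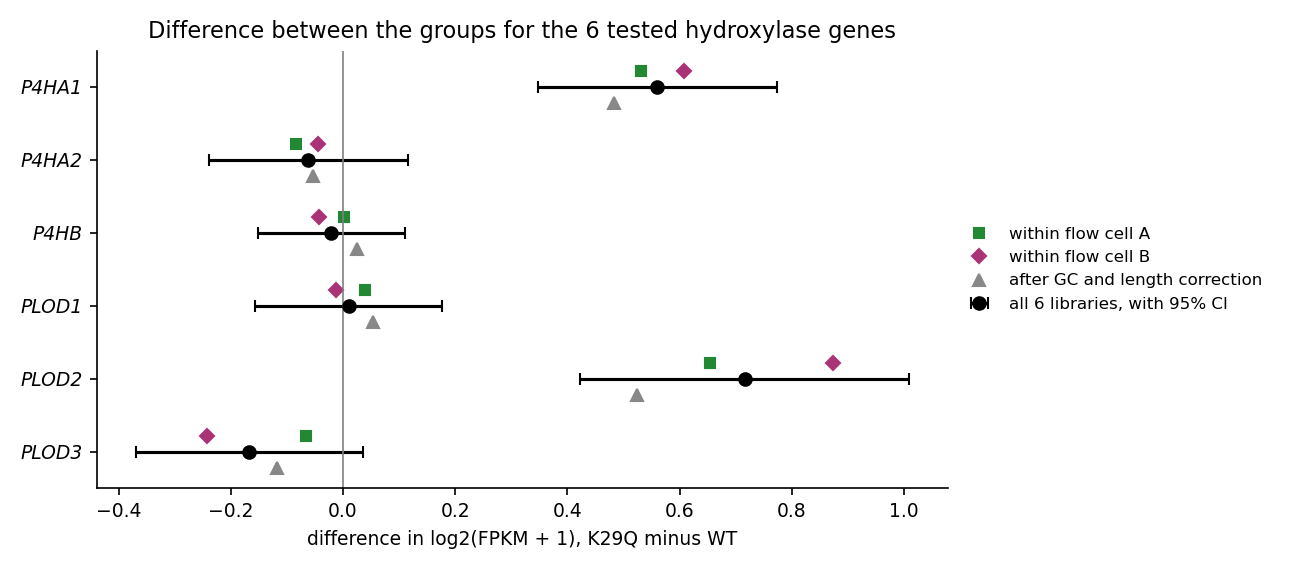
Difference in log2(FPKM + 1), K29Q minus WT (x axis), for the 6 tested hydroxylase genes: black points are the fit over 6 libraries with its 95% confidence interval, squares (flow cell A) and diamonds (flow cell B) the differences inside 1 flow cell, and triangles the fit to values corrected for GC content and length. The intervals of P4HA1 and PLOD2 lie above 0 and those of the other 4 genes span 0.

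Every K29Q library lay above every WT library for P4HA1 and PLOD2, so their sign within a flow cell was fixed in advance. Only the size of the difference could vary. On flow cell A, K29Q exceeded WT by 0.53 (log2) for P4HA1 and 0.65 for PLOD2. On flow cell B the log2 values were 0.61 and 0.87. PLOD3 differed by −0.07 on A and by −0.24 on B, which holds WT 3, its highest library. PLOD1 was 0.04 and −0.01, and P4HB 0.0011 and −0.04. Each flow cell held 1 library of one of the groups, so these values carry no test.

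The order of the members by level differed between the groups at 2 places. P4HB was first and PLOD1 second in all 6 libraries, with no overlap between them, and P4HA3 was last. PLOD3 stood above P4HA1 in each WT library, by 1.46, 3.29 and 9.72 FPKM in WT 1 to 3. P4HA1 stood above PLOD3 in each K29Q library, by 4.27, 9.71 and 9.20 FPKM in K29Q 1 to 3. PLOD2 and P4HA2 were close in WT 1, where PLOD2 was 0.0541 FPKM higher, and in WT 2 and WT 3 PLOD2 was lower, at 4.97 and 4.28 FPKM against 6.33 and 6.39. In K29Q 1 to 3 PLOD2 stood above P4HA2 by 3.02, 1.88 and 4.21 FPKM.

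Ratios formed within a library do not depend on how libraries are scaled to each other, but can still carry a trend with GC content. P4HA1 made up 77.4, 74.7 and 72.2% of the summed P4HA level in WT 1 to 3 and 82.8, 81.5 and 83.1% in K29Q 1 to 3. The WT mean was 74.8 ± 2.63% and the K29Q mean 82.4 ± 0.862% (SD, 3 libraries each), 7.68 percentage points apart, with no overlap. PLOD2 made up 5.88, 4.71 and 3.65% of the summed PLOD level in WT and 7.48, 7.78 and 9.25% in K29Q. Its mean share was 4.75 ± 1.12% in WT and 8.17 ± 0.951% in K29Q, 3.42 points apart. That gap was 2.38 points when GC content and length were corrected for, and 4.49 points on flow cell B.

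The level of the catalytic alpha subunits relative to the beta subunit also stood apart. The P4HA sum was 23.9, 21.9 and 19.2% of the P4HB level in WT 1 to 3 and 27.6, 31.0 and 30.8% in K29Q 1 to 3. The means were 8.11 points apart, and 6.28 points apart when GC content and length were corrected for. P4HB thus exceeded the P4HA sum by 4.18, 4.56 and 5.22 times in WT and by 3.63, 3.23 and 3.25 times in K29Q. The P4HA sum was 27.3, 25.0 and 20.7% of the PLOD sum in WT and 29.3, 34.8 and 33.2% in K29Q. The P4HA sum itself was 26.2 ± 1.88 FPKM in WT and 35.6 ± 2.26 in K29Q (ratio 1.36), while the PLOD sum was 109 ± 7.72 and 110 ± 2.76 FPKM (ratio 1.01), being made up mostly of PLOD1. For each of the 4 ratios the groups did not overlap and the exact two-sided permutation p was 0.1, the smallest possible with 3 against 3, and 0.1 after Benjamini-Hochberg adjustment over the 4. All 4 rest on P4HA1 or PLOD2 and are not independent of the values above.

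**Figure D3:**
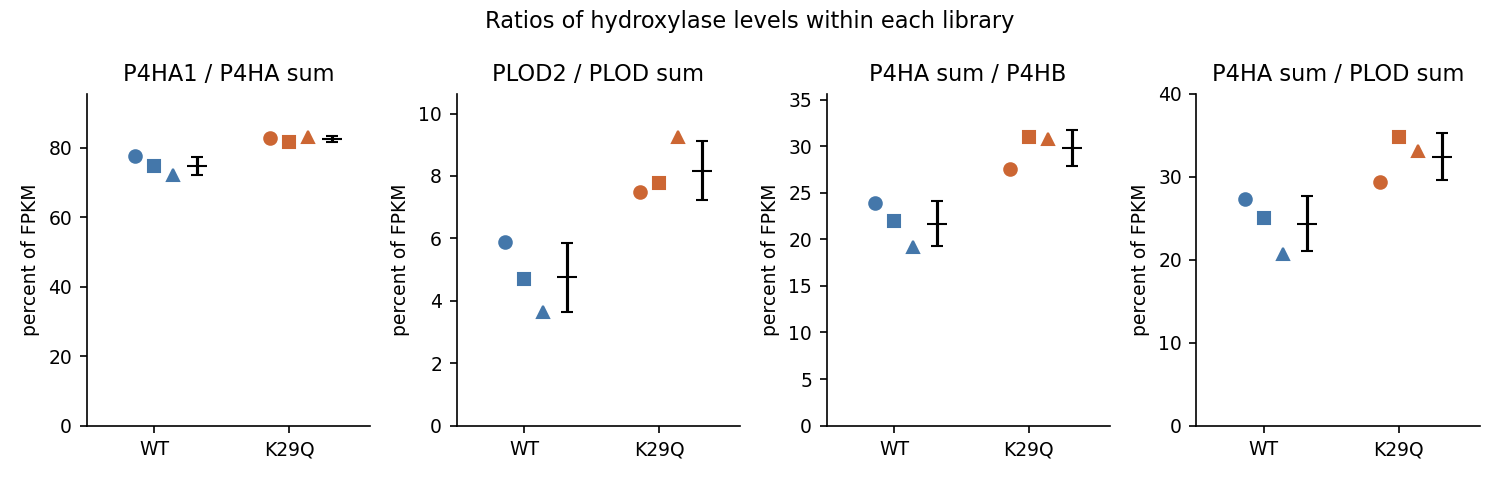
Ratios of hydroxylase levels within each library, in percent of FPKM (y axis, from 0), for 3 WT and 3 K29Q libraries with the mean and SD of each group. All K29Q libraries lie above all WT libraries in each of the 4 panels, by 7.68 points on average for the P4HA1 share and 3.42 points for the PLOD2 share.

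P4HA1 and PLOD2 were also the members whose transcripts are poorest in GC. The longest transcript had a GC content of 34.4% for PLOD2 and 40.8% for P4HA1, against 49.1% for P4HA2, 52.3% for P4HA3, 58.4% for P4HB, 58.6% for PLOD1 and 61.7% for PLOD3. Over all tested genes the median log2 difference was 0.15 where GC content was up to 40%, 0.03 from 40 to 50%, −0.04 from 50 to 60% and −0.05 above 60%. Per 10% of GC content, log2 values changed by −0.04, 0.03 and 0.12 in WT 1 to 3 and by 0.02, −0.06 and −0.07 in K29Q 1 to 3, relative to the mean of the 6 libraries. WT 3, with the steepest slope, was also the library with the lowest P4HA1 and PLOD2 and the highest P4HB, PLOD1 and PLOD3.

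Within the GC classes used above, both differences lay at the upper end. K29Q was wholly above WT for 11.3% of the genes with 40 to 50% GC and for 18.5% of those with up to 40%. In the class from 40 to 50% GC, 29 of 4777 genes (0.607%) had a larger log2 difference than P4HA1. P4HA1, at 40.8% GC, lies at the lower edge of that class, next to the class with a median of 0.15. The class is thus not a close match to its GC content. In the class up to 40% GC, 12 of 1873 genes (0.641%) had a larger one than PLOD2. With the GC and length trend of every library subtracted, P4HA1 was 21.0, 20.4 and 19.1 FPKM in WT 1 to 3 and 27.5, 29.4 and 28.8 in K29Q 1 to 3. PLOD2 was then 5.65, 5.74 and 5.05 FPKM in WT and 8.03, 7.88 and 9.07 in K29Q. The range within each group narrowed for both genes, and the log2 differences became 0.48 for P4HA1 and 0.52 for PLOD2. Both passed the threshold in that fit (limma, adjusted p = 0.025 and 0.0404), in which 79 of 13108 genes passed. Both missed it again when a flow cell term was added to the correction (limma, adjusted p = 0.0942 and 0.116), a setting chosen after seeing the data. With a planned term for replicate number added to the correction instead, 0 members passed. With the correction alone, PLOD3 was 23.7, 23.4 and 24.8 FPKM in WT and between 21.9 and 22.1 in K29Q. Its groups then no longer overlapped, at a log2 difference of −0.12 (limma, adjusted p = 0.269).

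**Figure D4:**
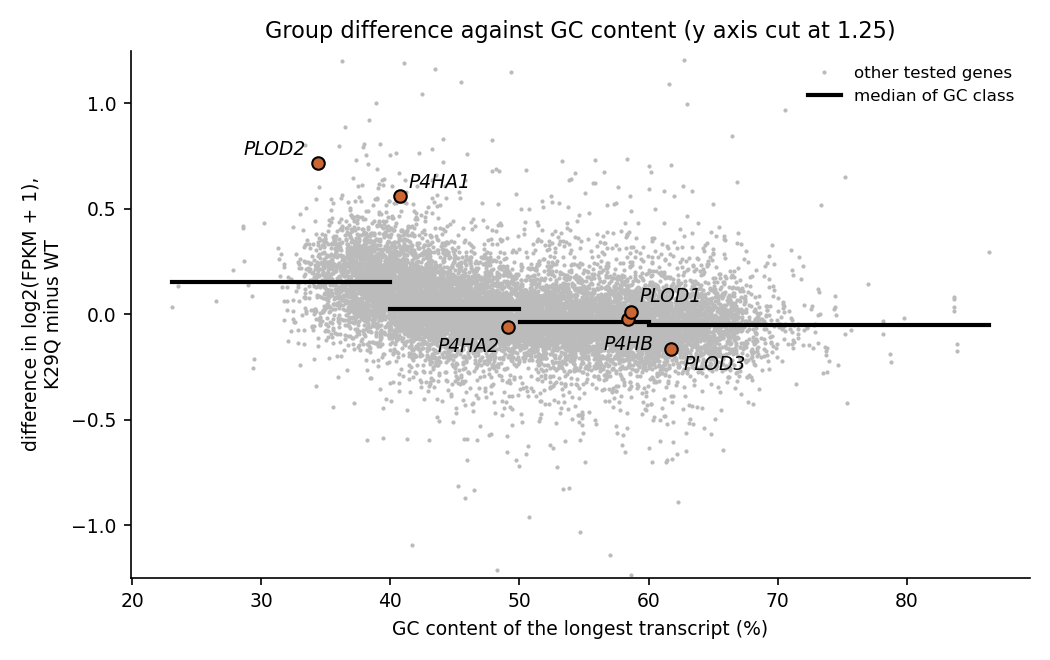
Difference in log2(FPKM + 1), K29Q minus WT (y axis), against the GC content of the longest transcript (x axis, in percent) for the tested genes, with the 6 tested hydroxylase genes named and the median of each GC class as a black line. P4HA1 and PLOD2 lie far above the medians of their classes, 0.03 and 0.15, and the other 4 lie near theirs. P4HA1 lies at the lower edge of its class.

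The other genes of collagen assembly were taken as fixed lists. Of 14 genes that fold and modify collagen in the endoplasmic reticulum 12 were tested, 4 above and 8 below 0, and 0 passed the threshold in either direction (limma, 0 at an unadjusted p under 0.05). K29Q lay wholly above WT for 1 (FKBP7) and wholly below for 1, against 8.8% and 9% of all genes. Their median log2 difference was −0.05, against 0.0030 over all tested genes. SERPINH1, the collagen chaperone HSP47, had a WT mean of 15.3 ± 0.398 FPKM and a K29Q mean of 13.9 ± 0.936 (SD over 3 libraries, as for the genes that follow). COLGALT1, which puts galactose on hydroxylysine, had 40.2 ± 3.01 and 36.6 ± 0.874 FPKM. CRTAP, a partner of prolyl 3-hydroxylase, had 16.1 ± 3.04 and 12.9 ± 2.37 FPKM, and FKBP7, a prolyl isomerase of the endoplasmic reticulum, had 0.927 ± 0.197 and 1.19 ± 0.0553 FPKM.

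Genes of collagen export, processing and cross-linking were mixed. Of 20 listed 16 were tested, 7 above and 9 below 0, with a median of −0.01, and 0 passed the threshold (limma, 2 higher and 3 lower at an unadjusted p under 0.05). K29Q lay wholly above WT for 1 and wholly below for 3, against 8.8% and 9% of all genes. LOXL2, a lysyl oxidase that cross-links the lysines and hydroxylysines of collagen, had 17.0 ± 1.48 FPKM in WT and 21.3 ± 0.509 in K29Q, with no overlap (ratio 1.26, limma adjusted p = 0.266). Like P4HA1 and PLOD2 it passed the threshold with GC and length correction (limma, adjusted p = 0.0336). LOXL2 missed it in the other 16 alternatives (limma, adjusted p up to 0.625). LOXL4 of the same family had 4.92 ± 0.389 and 4.09 ± 0.241 FPKM, with K29Q below WT. ADAMTS14, a procollagen N-proteinase, had 11.6 ± 1.32 and 9.32 ± 0.915 FPKM, and TMED1, a cargo receptor of the secretory pathway, 18.4 ± 2.34 and 12.7 ± 1.03 FPKM. The classic lysyl oxidase LOX, a HIF1 target, stayed under 1 FPKM in all libraries and was not tested.

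Most of the substrate genes were too low to be tested in these cells. Of 44 collagen chain genes 14 were tested, 21 stayed under 0.1 FPKM in every library, and the summed level was 168 to 199 FPKM in WT and 174 to 199 in K29Q. Of the 14, 10 lay above and 4 below 0, with a median of 0.07, and 0 passed the threshold (limma, 1 higher and 1 lower at an unadjusted p under 0.05). K29Q lay wholly above WT for 4 of the 14 and wholly below for 2, against 8.8% and 9% of all genes. The most abundant chain, COL6A1, had 79.4 ± 9.42 FPKM in WT and 77.5 ± 7.04 in K29Q. COL6A2 came next, with 30.0 ± 2.27 and 30.2 ± 2.41 FPKM, and the groups overlapped for both. COL12A1, which coats collagen fibrils, had 16.2 ± 1.43 FPKM in WT and 19.7 ± 0.632 in K29Q (ratio 1.22, adjusted p = 0.325). COL13A1, a transmembrane collagen, had 3.53 ± 0.264 and 2.87 ± 0.207 FPKM. The basement membrane chains COL4A3 and COL4A4 had 0.896 ± 0.172 and 1.57 ± 0.145 FPKM in WT and 1.17 ± 0.0790 and 1.88 ± 0.118 in K29Q.

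Relatives of the members by fold or chemistry were centred near 0. Of 20 disulfide isomerases and oxidases related to P4HB 16 were tested, 9 above and 7 below 0, with a median of 0.0070, and 0 passed the threshold (limma, 2 higher and 1 lower at an unadjusted p under 0.05). K29Q lay wholly above WT for 2 and wholly below for 1, against 8.8% and 9% of all genes. The membrane-bound isomerase TMX3 had 3.04 ± 0.570 FPKM in WT and 4.10 ± 0.158 in K29Q. DNAJC10, a disulfide reductase, had 2.35 ± 0.365 and 3.05 ± 0.141 FPKM, and the membrane thioredoxin relative TMX2 21.2 ± 0.866 and 18.4 ± 1.66 FPKM. ERO1A, the oxidase that recharges P4HB and a HIF1 target, had 12.1 ± 1.63 and 14.1 ± 1.21 FPKM with overlapping groups.

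The other oxygenases that use 2-oxoglutarate, outside the histone demethylases, numbered 30 tested of 35. Of these 16 lay above and 14 below 0, with a median of 0.0075, and 0 passed the threshold (limma, 3 higher and 1 lower at an unadjusted p under 0.05). K29Q lay wholly above WT for 4 and wholly below for 3, against 8.8% and 9% of all genes. EGLN1, the oxygen sensor that hydroxylates HIF1 alpha and is itself a HIF1 target, had 9.62 ± 0.214 FPKM in WT and 11.7 ± 0.405 in K29Q (ratio 1.21, limma adjusted p = 0.257). ALKBH8, a tRNA modifying enzyme, had 2.06 ± 0.117 and 2.57 ± 0.227 FPKM. TET2, which oxidises methylcytosine, had 0.927 ± 0.192 and 1.33 ± 0.144 FPKM. ASPHD1, a relative of aspartate hydroxylase, had 5.38 ± 0.691 and 4.29 ± 0.334 FPKM.

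The hypoxia targets outside the members had the highest median of the 6 lists. Of 36 listed 34 were tested, 30 above and 4 below 0, with a median of 0.18, and 17 had K29Q wholly above WT and 1 wholly below (8.8% and 9% of all genes). The threshold was passed by 0 (limma, 13 higher and 1 lower at an unadjusted p under 0.05, against 7.65% and 4.89% of all genes). The list shares EGLN1, EGLN3, ERO1A and LOX with the lists above and was chosen with earlier results of these data known, so it is not independent evidence of a direction. CA9, a carbonic anhydrase, had a log2 difference of 0.70 (3.24 ± 0.411 and 5.90 ± 0.553 FPKM), against 0.72 for PLOD2. The ratios of their means stood in the other order, 1.82 for CA9 and 1.76 for PLOD2. ADM, the secreted peptide adrenomedullin, had 7.93 ± 0.497 and 10.7 ± 0.122 FPKM, a log2 difference of 0.39. FAM162A, a mitochondrial protein, and ALDOC, a glycolytic aldolase, differed by 0.46 and 0.52, and KDM3A, the demethylase named in the series title, by 0.39 (4.18 ± 0.196 and 5.82 ± 0.678 FPKM, limma adjusted p = 0.235).

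**Figure D5:**
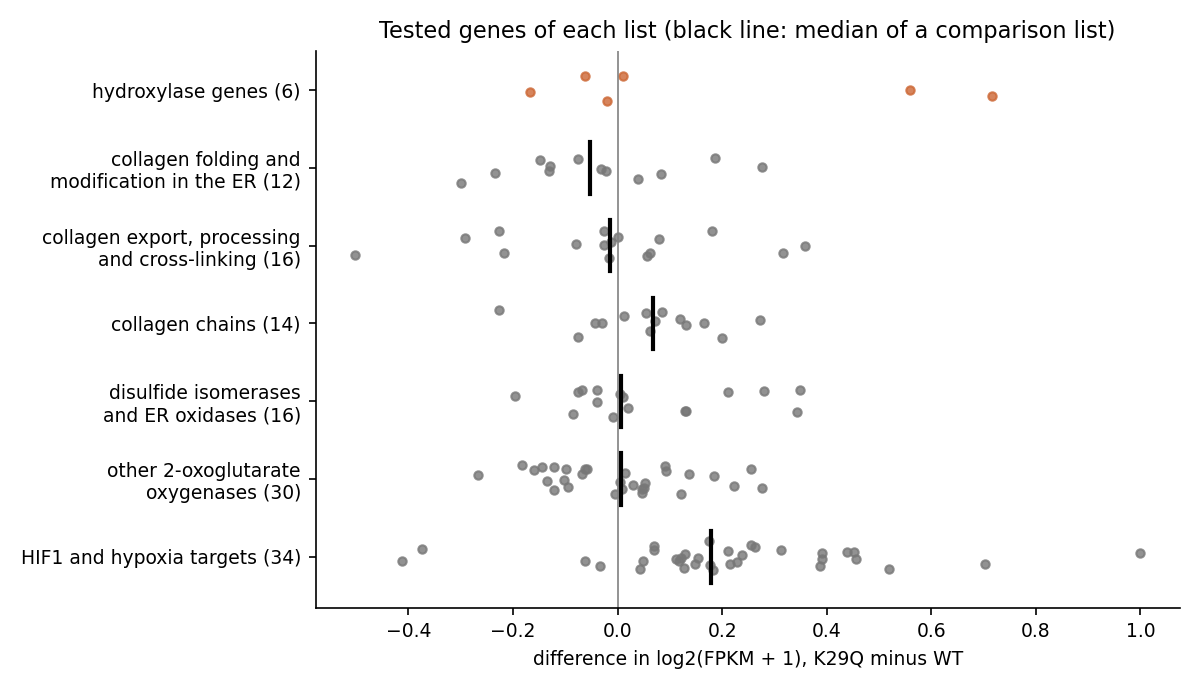
Difference in log2(FPKM + 1), K29Q minus WT (x axis), for each tested gene of the hydroxylases (orange) and of 6 comparison lists (grey), with the number tested in brackets and the median of each comparison list as a black line. P4HA1 and PLOD2 lie at 0.56 and 0.72, apart from the other 4 hydroxylases, and the hypoxia targets have the highest median, 0.18.

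The genes most like each member across the 6 libraries were found by Pearson correlation of log2(FPKM + 1), among genes with a mean of at least 3 on that scale. The 6 libraries are few points and share their 2 groups, flow cells and GC trends, so r is a description with no p. For P4HA1 they included the transporter ABCC2 (r = 0.991) and the isoprenoid enzyme IDI1 (0.990). For PLOD2 they included the splicing factor SFPQ (0.9997) and the kinase EIF2AK2 (0.994). A high r does not mean a difference of like size. IDI1 had means of 15.8 FPKM in WT and 23.3 FPKM in K29Q, and EIF2AK2 of 9.13 and 12.7. ABCC2 had means of 26.9 and 33.3 FPKM, and SFPQ of 43.0 and 47.2. The ratios were 1.24 for ABCC2 and 1.47 for IDI1, against 1.49 for P4HA1. They were 1.10 for SFPQ and 1.40 for EIF2AK2, against 1.76 for PLOD2. The genes nearest the other members had log2 differences between −0.18 and 0.02. P4HA2 was nearest to IPO4 (0.991), INCENP (0.975) and TMSB4X (0.967), and P4HB to ADCY3 (0.994), RITA1 (0.987) and DDX49 (0.985). PLOD1 was nearest to CECR5 (0.997), CSNK1D (0.988) and HDAC5 (0.986), and PLOD3 to CTSZ (0.999), RCE1 (0.996) and FLNA (0.996).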

How the data were processed

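Total RNA of 3 WT and 3 K29Q HCT116 libraries was sequenced, and the authors deposited 1 table with an FPKM value for every gene in each library. Per the submitters' processing notes the tools were HISAT2 2.1.0, an aligner, and StringTie, a quantifier, with GRCh38. Annotation, settings and strandedness are left out, being not given in the sources used here. No column (0) belonged to other samples. Depth is not stated and was estimated from the steps in FPKM of single-exon genes, taking 1 step as 1 fragment; StringTie divides fragments among transcripts, so counts were not recovered. Since an FPKM of 0 can be a failed assignment, such genes are called listed at 0.

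Genes with at least 1 FPKM in at least 3 libraries were kept (13261). Values of log2(FPKM + 1), which understate the change of low genes, were fitted with limma 3.58.1 (R 4.3.3, intensity trend, group as the only term), with two-sided p-values adjusted by Benjamini-Hochberg over all tested genes and a threshold of 0.05. The fit was also run on simulated data with independent noise for each gene. These held no GC, library or flow cell trend, so that run cannot show how such trends affect the fit. Positions and overlaps came from GENCODE 29, GC content and length from its longest transcripts, and the correction subtracted each library's loess trend (span 0.5). Upstream windows came from the RefSeq promoter table, which matched 6 of the 7 members. All 197 list entries were found in the table.

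Named genes were the members, PHF5A, KDM3A, up to 4 genes with the smallest p per list, and the 3 genes most correlated with each tested member, of which 2 are not reported here. Genes named outside that rule (markers, LOX, EGLN3, COL6A1, COL6A2, PPME1, ZNHIT1 and RP11-498C9.2) illustrate list levels or overlaps. The members and lists were chosen with earlier results of these data known. Alternatives were scaling, filters, pseudocounts, the trend, a replicate block, a flow cell term, the GC and length correction, and leaving out each library.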

Additional observations from a re-analysis of the deposited data

How the results depend on the processing

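Over the 17 alternatives the log2 difference was 0.48 to 0.63 for P4HA1 and 0.47 to 0.83 for PLOD2. The lowest value of each came with a pseudocount of 5, which gives a smaller log2 difference for the same FPKM values. Most of these settings could not turn the sign of the difference. As the groups do not overlap, leaving out 1 library, another pseudocount or a flow cell term keeps it. The filters, the trend and the replicate block leave the difference itself unchanged. Correction for GC content and length was the 1 setting in which both genes passed the threshold (0.48 and 0.52, limma adjusted p = 0.025 and 0.0404). Thus 2 members passed there and 0 elsewhere. With the replicate block added to that correction the adjusted p was 0.157 and 0.215. Over the other alternatives the adjusted p ranged up to 0.387 for P4HA1 and 0.392 for PLOD2. With 1 library left out, P4HA1 lay between 0.49 and 0.63 and PLOD2 between 0.62 and 0.83, and the adjusted p was lowest without WT 1 (0.0622 for both). The replicate numbers did not pair the libraries: same-numbered WT and K29Q libraries had correlated deviations of −0.14, 0.18 and −0.16. With the number as a replicate block the adjusted p was 0.343 for P4HA1 and 0.358 for PLOD2.

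Small differences changed sign: P4HB became 0.013 with quantile normalization, 0.025 with GC and length correction, alone or with the replicate block, and 0.024 with the flow cell term added to it. With 1 library left out P4HB ran from −0.045 to 0.011 and PLOD1 from −0.038 to 0.071. The PLOD2 share differed by 2.38 points with GC and length correction and by 4.49 on flow cell B alone. The other ratios moved by less than their spread. Over all genes 7 passed (4 higher, 3 lower), against 13 with quantile normalization (9 higher, 4 lower), 2 with no filter, 11 with a pseudocount of 5, 3 with the replicate block, 4 with a flow cell term, 79 with GC and length correction (58 higher, 21 lower) and 1 when the block was added to it. Leaving out 1 library gave 5 to 20, with 20 without WT 1 and 12 without K29Q 1. The cause was not tested. Of 26 other named genes, 6 passed with GC and length correction, among them PHF5A, LOXL2, CA9 and ADM. P4HA3 was left out by the filter of 1 FPKM.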
